A study of Rattus norvegicus with 10 samples.

Results

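The 33 genes described here form a list of interferon response genes, chosen by name and followed through liver RNA sequencing of diabetic rats. All 33 were found in the isoform table, which holds 20226 named genes, and each gene's value is the sum over its isoforms on the gene's own strand in each library. A mean of at least 1 FPKM (fragments per kilobase, a level scaled to transcript length and library size) was reached by 32 of the 33 and by 11139 of all named genes, and these entered the tests. Zbp1 was below that level. SG stands for liver of wild type Wistar rats, made diabetic, 3 months after sleeve gastrectomy, in which most of the stomach is removed and a narrow tube is left. SHAM stands for liver of wild type Wistar rats made diabetic in the same way and operated on without removal of the stomach, with the time of sampling not given in the sources used here. Rats of both groups had eaten a diet with 60% of its calories as fat for 4 weeks and had received 35 mg/kg streptozotocin, a toxin of the insulin-producing cells, after 16 h of fasting, and qualified with a fasting glucose above 16.7 mmol/L 3 days later. No healthy or unoperated liver was among the samples, so all 10 libraries carry the diet and the toxin. The groups held 5 libraries each (SG 1 to SG 5, SHAM 1 to SHAM 5) and were compared to ask how liver transcripts of diabetic rats differ after the operation. Whether the 5 libraries of a group are 5 rats is not stated in the labels. The p-values below therefore rest on the spread among libraries, which may be technical in part. For most of the list SHAM 5 stood apart from the other 9 libraries, so the comparisons of SG with SHAM are given with and without it. Rsad2 entered the tests only through SHAM 5, since its mean over the other 9 libraries was 0.721 FPKM.

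Interferons are secreted proteins that warn neighbouring cells of viral nucleic acid. Type I interferons bind the receptor of Ifnar1 and Ifnar2, whose kinases Jak1 and Tyk2 phosphorylate Stat2. It acts with Irf9 in a factor that binds the interferon-stimulated response element (ISRE) before its target genes, and interferon gamma acts through the gamma-activated site (GAS). The targets include the sensors that start the response, the factors that carry it on, enzymes that block viral replication, and Usp18, which shuts the receptor off. In liver, hepatocytes and resident macrophages, called Kupffer cells, both respond.

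RefSeq promoter sequences of assembly GRCr8, covering 250 bases before to 50 bases after each gene's start, were matched by symbol for 24 of the 33 genes. No entry was matched for Ifit1, Ifit2, Isg15, Mx2, Ddx58, Usp18, Rtp4, Dhx58 and Zbp1. The sequences are shown because many, though not all, of these promoters held a regulatory word of the interferon response. The members were chosen by name as genes of that response. The list is therefore not independent of the word, and the shares below are a description. The ISRE core, searched on both strands as TTTC, any 2 bases, then TTTC, was found in 14 of the 24 promoters (58.3%), against 3.92% of all 33469 promoters of the same length. The GAS, searched on both strands as TTC, any 3 bases, then GAA, was found in 5 of 24 (20.8%), against 8.87% of all promoters. Capitals mark the ISRE matches, which read GAAA first where the match lies on the other strand. The first 4 sequences are whole promoters with a match, of genes that reached their highest level in SHAM 5: Irf7 at chr1:205799974-205800273 (minus strand), Oas1a at chr12:41330216-41330515 (plus), Ifit3 at chr1:241527076-241527375 (plus) and Rsad2 at chr6:48788071-48788370 (minus).
Irf7: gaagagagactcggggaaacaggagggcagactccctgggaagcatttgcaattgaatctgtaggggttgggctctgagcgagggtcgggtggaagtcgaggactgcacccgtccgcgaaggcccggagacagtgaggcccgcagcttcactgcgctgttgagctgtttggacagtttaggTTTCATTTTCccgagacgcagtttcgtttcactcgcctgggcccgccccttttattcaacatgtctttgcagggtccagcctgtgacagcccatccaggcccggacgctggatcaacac
Oas1a: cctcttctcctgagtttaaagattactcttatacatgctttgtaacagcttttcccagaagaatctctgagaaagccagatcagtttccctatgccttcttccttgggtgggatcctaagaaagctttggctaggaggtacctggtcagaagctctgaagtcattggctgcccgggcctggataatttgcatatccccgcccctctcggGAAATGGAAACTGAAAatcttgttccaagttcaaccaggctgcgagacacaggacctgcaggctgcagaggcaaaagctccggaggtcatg
Ifit3: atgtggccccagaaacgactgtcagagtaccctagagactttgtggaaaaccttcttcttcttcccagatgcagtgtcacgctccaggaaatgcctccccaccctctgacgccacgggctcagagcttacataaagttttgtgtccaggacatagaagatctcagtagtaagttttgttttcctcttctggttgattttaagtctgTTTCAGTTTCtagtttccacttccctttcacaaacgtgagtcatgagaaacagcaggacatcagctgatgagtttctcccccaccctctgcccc
Rsad2: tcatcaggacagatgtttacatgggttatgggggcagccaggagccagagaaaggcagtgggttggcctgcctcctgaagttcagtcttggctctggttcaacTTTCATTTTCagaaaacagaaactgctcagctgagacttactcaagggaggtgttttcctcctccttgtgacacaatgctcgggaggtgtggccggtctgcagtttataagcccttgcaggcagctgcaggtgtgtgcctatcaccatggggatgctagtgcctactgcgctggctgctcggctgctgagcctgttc
The matches began 69 bases before the start in Irf7, 44 in Ifit3 and 147 in Rsad2. Irf7 and Rsad2 held the same ISRE letters. In Oas1a a pair of overlapping matches, with starts 41 and 35 bases before the gene, runs through the capitals.

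Stretches around the matches of the other 10 genes follow, each with up to 20 bases on either side.
Ifih1: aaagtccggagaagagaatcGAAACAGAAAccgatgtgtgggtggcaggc
Bst2: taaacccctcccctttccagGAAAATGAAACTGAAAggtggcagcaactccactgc
Gbp2: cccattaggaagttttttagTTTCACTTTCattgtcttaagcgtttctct
Parp14: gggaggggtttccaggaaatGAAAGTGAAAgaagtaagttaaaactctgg
Dtx3l: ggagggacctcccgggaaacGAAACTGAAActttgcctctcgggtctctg
Cxcl10: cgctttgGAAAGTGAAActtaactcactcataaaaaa
Ifi27: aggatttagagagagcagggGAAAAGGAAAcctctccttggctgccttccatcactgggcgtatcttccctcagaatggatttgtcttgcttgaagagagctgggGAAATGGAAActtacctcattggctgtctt
Ifi44: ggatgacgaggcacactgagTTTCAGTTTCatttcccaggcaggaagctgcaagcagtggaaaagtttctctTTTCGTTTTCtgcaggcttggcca
Xaf1: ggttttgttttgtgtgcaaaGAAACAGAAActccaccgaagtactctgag
Lgals3bp: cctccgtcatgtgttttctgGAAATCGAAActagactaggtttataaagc
These lie in GRCr8 at chr3:67683998-67684047 (minus strand) for Ifih1, chr16:18255063-18255118 (minus) for Bst2, chr2:234005676-234005725 (plus) for Gbp2, chr11:78408038-78408087 (plus) for Parp14 and chr11:78320215-78320264 (plus) for Dtx3l. The others lie at chr14:15988816-15988852 (plus) for Cxcl10, chr6:128355123-128355257 (plus) for Ifi27, chr2:243303791-243303886 (minus) for Ifi44, chr10:57415904-57415953 (plus) for Xaf1 and chr10:104127869-104127918 (minus) for Lgals3bp. Bst2 held overlapping matches, as Oas1a did, and Ifi27 and Ifi44 each held 2 separate ones.

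Whole promoters of Mx1 at chr11:50294557-50294856 (minus) and Ube2l6 at chr3:90279455-90279754 (plus) are shown as the contrast, since neither held the ISRE letters in this window. Mx1 had one of the highest ratios of SHAM 5 to the other libraries, and Ube2l6 was the member whose SG and SHAM values did not overlap.
Mx1: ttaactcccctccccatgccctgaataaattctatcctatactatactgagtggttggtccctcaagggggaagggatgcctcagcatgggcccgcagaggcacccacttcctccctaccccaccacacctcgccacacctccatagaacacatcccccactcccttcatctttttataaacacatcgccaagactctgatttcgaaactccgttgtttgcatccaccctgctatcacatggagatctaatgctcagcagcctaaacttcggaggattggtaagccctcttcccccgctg
Ube2l6: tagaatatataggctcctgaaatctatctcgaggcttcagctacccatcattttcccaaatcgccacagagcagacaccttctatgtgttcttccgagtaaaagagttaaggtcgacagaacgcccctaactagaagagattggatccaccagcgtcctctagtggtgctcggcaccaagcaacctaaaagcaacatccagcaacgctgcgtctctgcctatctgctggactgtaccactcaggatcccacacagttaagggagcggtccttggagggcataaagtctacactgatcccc
The level in SHAM 5 divided by the median of the other 9 libraries had a median of 4.66 over the 14 genes with a match (0.982 in Bst2 to 25.1 in Rsad2). Over the 10 genes without one the median was 2.42 (1.26 in Stat2 to 21.6 in Mx1), so the ranges overlapped widely. The 9 genes with no promoter entry are in neither median, and whether they hold the letters is not known. Their ratios ran from 2.31 in Rtp4 to 111 in Ifit1, with Mx2 at 31.0 and Usp18 at 17.4. A match is a run of letters in a reference, not a binding site measured in these livers.

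Library totals were 77617460 to 92110190 estimated counts in SG and 65824088 to 85520959 in SHAM. The liver label held in every library: the summed level of 10 hepatocyte markers was 34910 to 49810 FPKM in SG and 33220 to 46210 FPKM in SHAM. Across all 11139 tested genes no gene passed edgeR's quasi-likelihood test at an adjusted p under 0.05 (0 genes, 0.0%), and 505 (4.53%) had an unadjusted p under 0.05. Without SHAM 5 the counts were 0 (0.0%) and 642 (5.76%).

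Most of the interferon response genes had their highest level in SHAM 5. SHAM 5 was the highest of the 10 libraries for 30 of the 33 genes, and for 29 of the 32 tested ones, against 6.74% of all tested genes. It was at least 2-fold above every other library for 22 of the 33, at least 5-fold for 9 and at least 10-fold for 4 (Rsad2, Mx2, Mx1 and Isg15). Bst2, Ifi35 and Stat2 were the 3 genes that reached their highest level elsewhere. Centred on each gene's mean over the libraries in log2(FPKM + 0.5) and averaged over the tested members, the level was 1.91 in SHAM 5, -0.43 to 0.13 in the other SHAM libraries and -0.58 to 0.01 in SG.

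**Figure D1:**
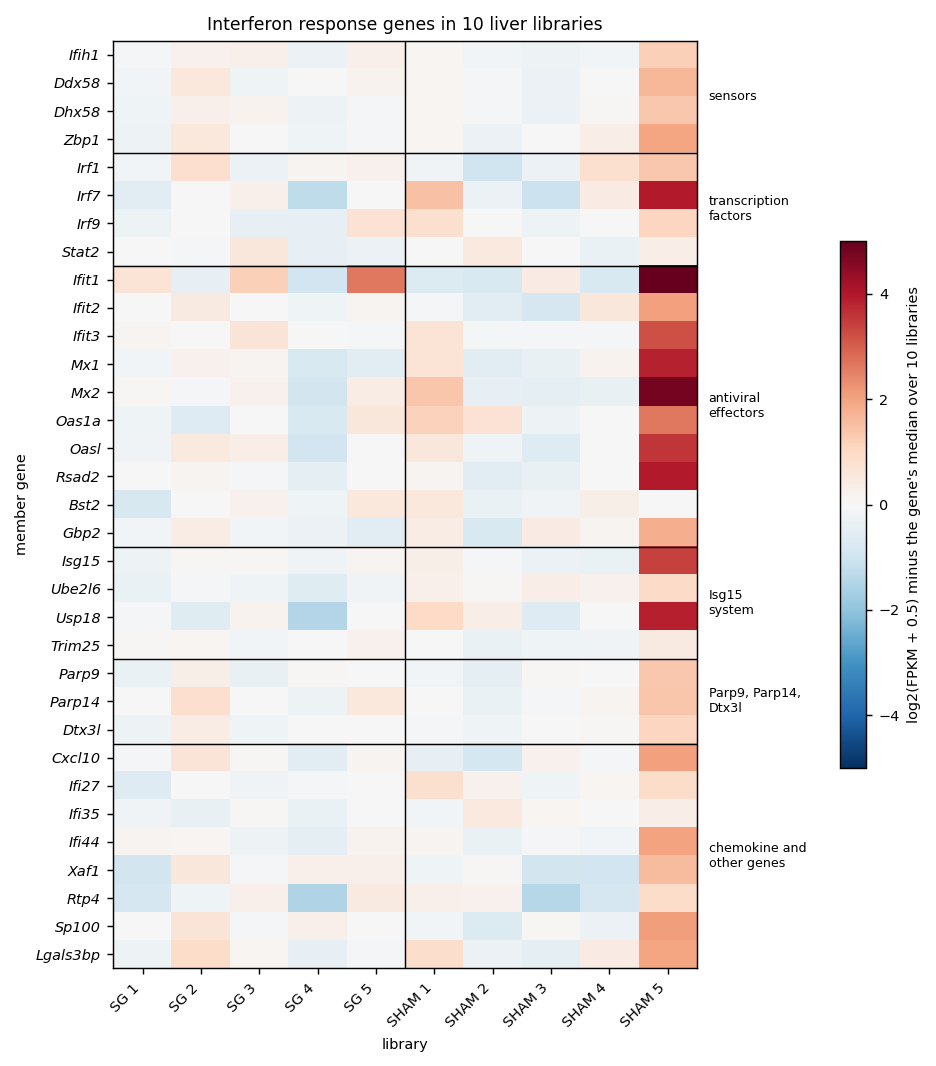
Each cell gives log2(FPKM + 0.5) of a member gene in a library minus the median of that gene over the 10 libraries, with genes as rows grouped by role and SG and SHAM libraries as columns. The SHAM 5 column is red for nearly every gene, while Bst2, Ifi35, Stat2 and Trim25 are pale there.

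With all 10 libraries the log2 fold change (SG against SHAM) was below 0 for 32 of the 32 tested members, against 52.6% of all tested genes. Its median over the members was -0.74 (range -2.92 to -0.07), against -0.01 over all genes. An unadjusted p under 0.05 was found for 12 of them (37.5%), all negative, against 1.85% of all genes with such a p and lower values in SG. Rsad2 is among the 32 and the 12, and reached the level set for testing only through SHAM 5. None of the 32 passed after adjustment over all genes (edgeR, adjusted p from 0.991 to 0.993). Without SHAM 5, 20 were negative and 12 positive (50.8% of all genes were negative), the median was -0.07, and 4 had an unadjusted p under 0.05. Those 4 were Ube2l6, Ifi35, Ifi27 and Irf9, all negative (2.68% of all genes were negative with such a p), and they were also among the 12 with all libraries. None passed there either (edgeR, adjusted p from 0.779 to 0.996). In bulk liver, fewer cells of a type and less RNA per cell cannot be told apart in any of these values.

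**Figure D2:**
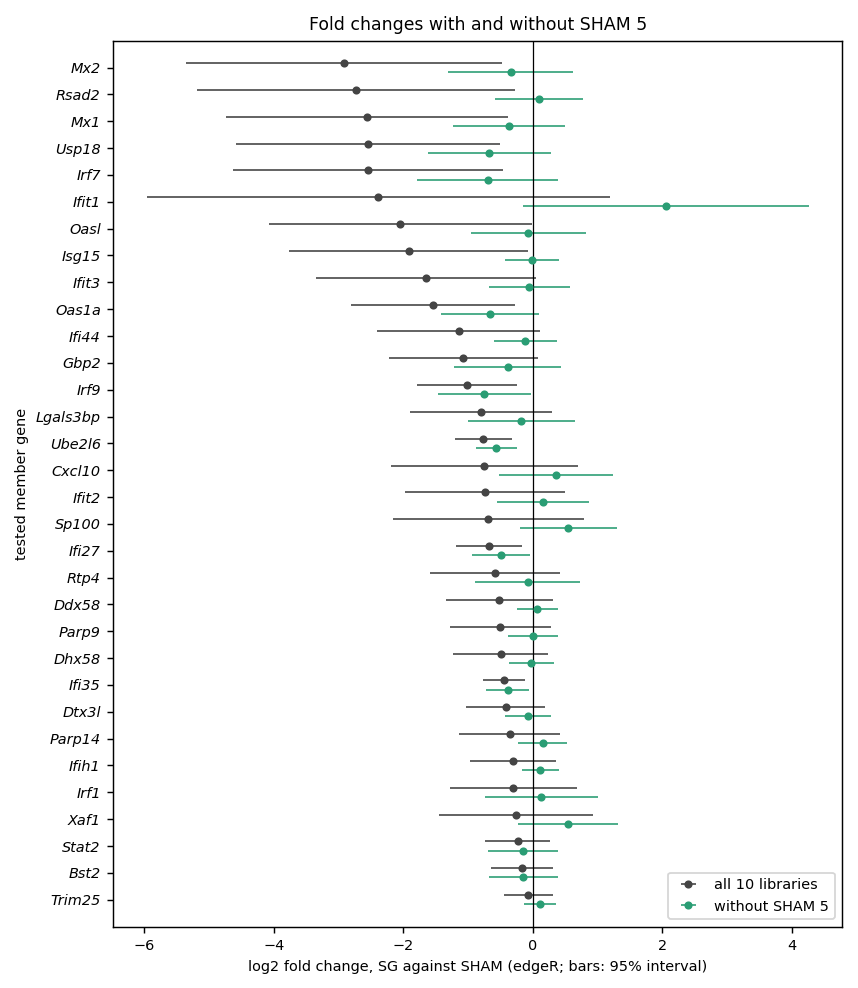
The log2 fold change of each of the 32 tested members, SG against SHAM, on the x axis, with 95% confidence intervals from edgeR, for all 10 libraries (dark) and without SHAM 5 (green). With all libraries every point lies below 0, with a median of -0.74, and without SHAM 5 the points gather near 0, with a median of -0.07.

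The intervals were wide. Their median reach on either side of the estimate was 1.12 for the members with all libraries, against 0.37 for all tested genes, and 0.69 without SHAM 5, against 0.38. Values near 0 therefore do not show that the groups were alike.

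The sensors of viral nucleic acid were close in SG and in SHAM 1 to SHAM 4, and higher in SHAM 5. Ifih1, which binds long double-stranded RNA, had 4.27 to 6.34 FPKM in SG, 4.40 to 5.66 in SHAM 1 to SHAM 4 and 12.8 in SHAM 5. Ddx58, the RIG-I sensor of viral RNA ends, had 16.4 to 27.9 FPKM in SG, 15.6 to 20.5 in SHAM 1 to SHAM 4 and 60.9 in SHAM 5. Dhx58, a regulator of both, had 2.36 to 3.57, 2.32 to 3.22 and 8.14 FPKM in the same order. For each of these the SG range held or overlapped that of the 4 lower SHAM libraries. The log2 fold changes were -0.31 ± 0.30 (SE) for Ifih1, -0.52 ± 0.37 for Ddx58 and -0.50 ± 0.33 for Dhx58, and without SHAM 5 they were 0.12, 0.07 and -0.02. Zbp1, a sensor of Z-form nucleic acid, was at 0.06 to 0.50 FPKM in 9 libraries and at 2.20 in SHAM 5, and was not tested.

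Among the transcription factors, Irf7 varied most. Irf7, which amplifies type I interferon production, had 4.51, 6.78, 8.15, 2.58 and 6.90 FPKM in SG 1 to SG 5. In SHAM 1 to SHAM 5 it had 20.02, 5.55, 2.99, 9.23 and 113 FPKM. SHAM 5 was 5.63-fold above SHAM 1, the next library, and the levels of SHAM 2 and SHAM 3 were inside the SG range. In edgeR Irf7 had a log2 fold change of -2.54 ± 0.94 (SE; edgeR, unadjusted p = 0.022), and -0.70 ± 0.49 without SHAM 5 (unadjusted p = 0.18). The assembled 11-exon isoform gave 98.5 of the 113 FPKM in SHAM 5, or 87.4%, while SHAM 1 and SHAM 2 had 0 FPKM of it and carried the annotated 10-exon isoform alone. In the other 7 libraries it made up 26.5% to 93.0% of Irf7.

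Irf9, the DNA-binding subunit of the type I interferon factor, had a negative log2 fold change with and without SHAM 5, of a size that differed between counts and FPKM. It had 2.51, 3.14, 2.24, 2.26 and 5.43 FPKM in SG 1 to SG 5 and 5.89, 3.19, 2.55, 3.11 and 7.07 FPKM in SHAM 1 to SHAM 5. SG 5 lay among the high values and SHAM 3 among the low ones, so the groups overlapped. In CPM, which scales counts by library size alone, the same libraries had 11.6, 6.48, 11.3, 8.64 and 19.5 in SG and 30.6, 15.7, 13.5, 16.2 and 36.9 in SHAM. From counts, Irf9 had a log2 fold change of -1.02 ± 0.35 (SE; edgeR, unadjusted p = 0.014), and -0.75 ± 0.32 without SHAM 5 (unadjusted p = 0.042). On FPKM, which divides by isoform length, the difference was smaller: limma on log2(FPKM + 0.5) gave -0.40 (adjusted p = 0.861), and -0.22 without SHAM 5 (adjusted p = 0.905). The log2 ratio of group means was -0.97 in CPM and -0.49 in FPKM, and -0.73 and -0.24 without SHAM 5. SG 2 assigned 98.0% of its Irf9 FPKM to an annotated isoform of 1598 bases, where SHAM 1 assigned 100% to an assembled one of 4123 bases, so the size of this difference moves with the isoform estimate.

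Irf1, a factor of the interferon gamma response, had 5.85 to 13.2 FPKM in SG, 3.40 to 13 in SHAM 1 to SHAM 4 and 18.97 in SHAM 5. Stat2, the partner of Irf9, had 15.7 to 31.3 FPKM in SG, 16.6 to 30.2 in SHAM 1 to SHAM 4 and 26.8 in SHAM 5. Stat2 thus reached its highest level in SG 3, and both genes overlapped between the groups. Their log2 fold changes were -0.30 ± 0.44 (SE) and -0.24 ± 0.23, and without SHAM 5 they were 0.13 and -0.15.

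The antiviral effectors held the widest ratios, with SHAM 5 at 0.982 to 111 times the median of the other 9 libraries and a median ratio of 14 over the 10 genes. Mx2, a GTPase of the family that traps viral nucleocapsids, had 6.37, 5.78, 7.07, 3.02 and 8.09 FPKM in SG 1 to SG 5. It had 16.6, 4.43, 4.17, 4.56 and 179 FPKM in SHAM 1 to SHAM 5. SHAM 2 to SHAM 4 lay below all SG libraries but SG 4, SHAM 1 lay above them all, and SHAM 5 was 10.8-fold above SHAM 1. Mx2 had a log2 fold change of -2.92 ± 1.10 (SE; edgeR, unadjusted p = 0.024), and -0.34 ± 0.43 without SHAM 5 (unadjusted p = 0.44). Mx1, its close copy, had 1.32, 1.84, 1.68, 0.67 and 0.90 FPKM in SG and 2.69, 0.83, 1.04, 1.75 and 28.6 FPKM in SHAM, in library order. Again SHAM 5 stood apart and SHAM 1 was next, with the remaining SHAM values inside the SG range. For Mx1 the log2 fold change was -2.56 ± 0.98 (edgeR, unadjusted p = 0.025), and -0.36 ± 0.38 without SHAM 5 (unadjusted p = 0.37).

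Rsad2, which encodes viperin, an enzyme that makes a chain-ending nucleotide, had 0.82, 0.94, 0.77, 0.44 and 0.83 FPKM in SG 1 to SG 5. In SHAM 1 to SHAM 5 it had 0.96, 0.38, 0.53, 0.81 and 20.3 FPKM. SHAM 5 was 21.0-fold above the next library, the widest such ratio among the tested members, and the other 9 libraries were all under 1 FPKM. The estimate for Rsad2 in log2 was -2.73 ± 1.11 (SE; edgeR, unadjusted p = 0.032), and 0.09 ± 0.30 without SHAM 5 (unadjusted p = 0.77), where the mean of Rsad2 was below the level set for testing.

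The oligoadenylate synthetases make the messenger that activates RNase L. Oas1a had 5.07, 3.59, 6.02, 3.32 and 9.09 FPKM in SG 1 to SG 5 and 13.9, 10.2, 4.93, 5.86 and 39.6 FPKM in SHAM 1 to SHAM 5. SHAM 1 and SHAM 2 also lay above every SG library, while SHAM 3 and SHAM 4 lay within their range. Oas1a had a log2 fold change of -1.54 ± 0.57 (SE; edgeR, unadjusted p = 0.022), and -0.66 ± 0.34 without SHAM 5 (unadjusted p = 0.079). Oasl, a synthetase-like protein that helps RIG-I, had 1.54, 2.71, 2.41, 0.69 and 1.75 FPKM in SG and 2.91, 1.5, 0.99, 1.87 and 27.1 FPKM in SHAM. Apart from SHAM 5, which was 9.32-fold above the next library, the groups overlapped. For Oasl the log2 fold change was -2.05 ± 0.92 (edgeR, unadjusted p = 0.048), and -0.07 ± 0.40 without SHAM 5 (unadjusted p = 0.87).

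Ifit proteins restrain the translation of viral RNA. Ifit1, which binds the end of such RNA, had 1.64, 0.51, 2.56, 0.19 and 7.83 FPKM in SG 1 to SG 5 and 0.33, 0.28, 1.27, 0.28 and 56.0 FPKM in SHAM 1 to SHAM 5. SG 5 and SG 3 were next to SHAM 5, and 3 SHAM libraries were near the bottom. The log2 fold change of Ifit1 was -2.39 ± 1.61 (SE; edgeR, unadjusted p = 0.17) with all libraries and 2.06 ± 0.99 without SHAM 5 (unadjusted p = 0.065), the widest turn among the members. Ifit2 had 1.65 to 5.25 FPKM in 9 libraries and 15.8 in SHAM 5. Ifit3 had 1.33 to 2.72 FPKM in 9 libraries and 18.1 in SHAM 5. Gbp2, a guanylate-binding protein, had 0.76 to 2.34 FPKM in 9 libraries and 6.98 in SHAM 5. In each of these 3 genes the SG range and that of SHAM 1 to SHAM 4 overlapped. Their log2 fold changes were -0.74 ± 0.56, -1.65 ± 0.77 and -1.07 ± 0.52, and without SHAM 5 they were 0.16, -0.05 and -0.39. The Ifit genes lie side by side on chromosome 1 (Rnor_6.0, from 252894663 to 252946170), and Mx1 and Mx2 are neighbours on chromosome 11. Reads of such close copies may be split between them by the assembler.

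Bst2, or tetherin, which holds budding virus at the cell surface, did not stand out in SHAM 5. It had 29.1 to 73.5 FPKM in SG, 39.8 to 73.5 in SHAM 1 to SHAM 4 and 50.2 in SHAM 5. SG 5 and SHAM 1 shared the highest value in FPKM, but in CPM SG 5 had 69.7, SHAM 4 65.2 and SHAM 1 50.1. SG 3 and SHAM 1 assigned 77.7% and 78.8% of Bst2 to an isoform of 519 bases, and the other 8 libraries had 73.2% or more in an isoform of 787 bases. Bst2 had a log2 fold change of -0.16 ± 0.22 (SE), and -0.15 without SHAM 5.

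**Figure D3:**
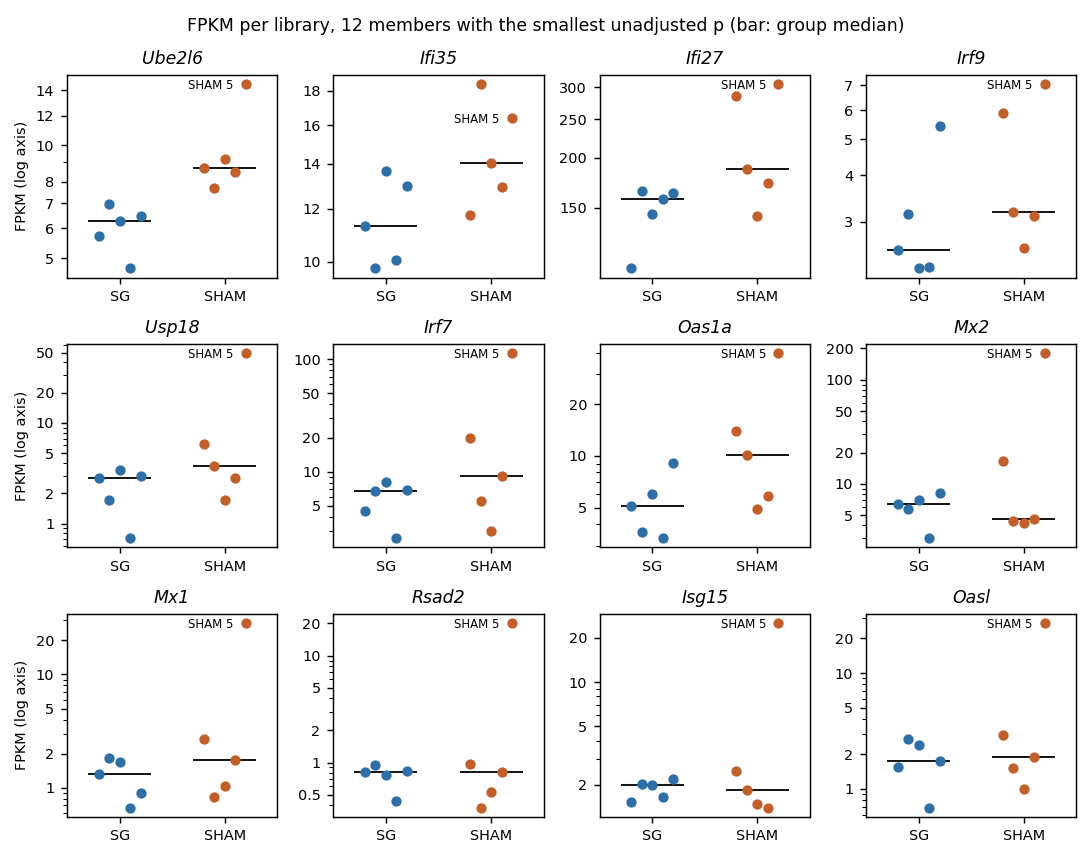
FPKM per library on a log axis for the 12 members with the smallest unadjusted p, with SG in blue, SHAM in orange, bars at group medians and SHAM 5 named. Ube2l6 is the gene in which the groups are fully apart, and in Mx2, Rsad2, Isg15 and Oasl the values of SHAM libraries other than SHAM 5 overlap those of SG.

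Isg15 is a ubiquitin-like protein that is joined to other proteins during the response, and its conjugation system included the member with the smallest p. Ube2l6, the enzyme that carries Isg15 to its targets, had 5.72, 6.96, 6.28, 4.69 and 6.47 FPKM in SG 1 to SG 5. It had 8.72, 7.68, 9.21, 8.48 and 14.6 FPKM in SHAM 1 to SHAM 5. Every SG library lay below every SHAM library. Ube2l6 was the sole member of which this held, in FPKM and in CPM, with and without SHAM 5. Among all tested genes it held in FPKM for 3 (0.0269%) with all libraries and for 25 (0.224%) without SHAM 5, and in CPM for 15 (0.135%) and 80 (0.718%). The opposite order, every SG library above every SHAM library, held for 1.31% of genes with all libraries and 2.15% without SHAM 5, and for 0 members without SHAM 5. The log2 fold change of Ube2l6 was -0.76 ± 0.20 (SE; edgeR, unadjusted p = 0.0027), and -0.56 ± 0.14 without SHAM 5 (unadjusted p = 0.0027). It did not pass after adjustment over all genes (edgeR, adjusted p = 0.991, and adjusted p = 0.779 without SHAM 5).

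Isg15 itself had 1.52, 2.01, 2.0, 1.65 and 2.18 FPKM in SG 1 to SG 5 and 2.47, 1.84, 1.47, 1.40 and 25.3 FPKM in SHAM 1 to SHAM 5. SHAM 1 to SHAM 4 spread around the SG values, and SHAM 5 was 10.2-fold above the next library. On the log2 scale the SG to SHAM difference of Isg15 was -1.92 ± 0.83 (SE; edgeR, unadjusted p = 0.043), and -0.01 ± 0.19 without SHAM 5 (unadjusted p = 0.96). Usp18, which removes Isg15 from proteins and blocks the interferon receptor, had 2.81, 1.72, 3.38, 0.72 and 2.98 FPKM in SG and 6.23, 3.76, 1.70, 2.83 and 49.2 FPKM in SHAM. SHAM 5 was 7.91-fold above SHAM 1, and the values of SHAM 3 and SHAM 4 were ones also seen in SG. For Usp18 the log2 fold change was -2.55 ± 0.92 (edgeR, unadjusted p = 0.019), and -0.67 ± 0.42 without SHAM 5 (unadjusted p = 0.15). Trim25, a ubiquitin ligase that activates RIG-I, had 10.5 to 13.8 FPKM in SG, 9.19 to 11.9 in SHAM 1 to SHAM 4 and 16.5 in SHAM 5. Its log2 fold change was the smallest of the list, at -0.07 ± 0.17, and 0.11 without SHAM 5.

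Parp9 and Dtx3l form a complex that joins ADP-ribosylation to ubiquitination, and Parp14 is a related ADP-ribosyltransferase. Parp9 had 10.1 to 16.2 FPKM in SG, 9.63 to 13.7 in SHAM 1 to SHAM 4 and 34.0 in SHAM 5. Dtx3l had 7.55 to 12.03, 7.92 to 9.60 and 20.2 FPKM in the same order, and Parp14 9.57 to 21.1, 9.11 to 12.8 and 31.1 FPKM. SG 2 was the next highest library for all 3. Their log2 fold changes were -0.50 ± 0.35 (SE), -0.42 ± 0.27 and -0.36 ± 0.35, and without SHAM 5 they were 0.01, -0.08 and 0.15. Parp9 (chromosome 11, 67724076 to 67758065, minus strand) and Dtx3l (67754475 to 67772425, plus strand) overlap in Rnor_6.0, and the labels do not say whether the libraries kept the strand, so reads in the overlap cannot be told apart. The table also holds 5 isoforms named Dtx3l on the minus strand, which were left out.

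In the remaining group, Ifi27 and Ifi35 kept negative values in both fits. Ifi27, a membrane protein with the highest level of the list, had 106, 165, 144, 158 and 163 FPKM in SG 1 to SG 5. In SHAM 1 to SHAM 5 it had 285, 188, 143, 173 and 306 FPKM. SHAM 5 and SHAM 1 were close together at the top, SHAM 2 and SHAM 4 lay just above the highest SG library, and SHAM 3 lay within the SG range. Ifi27 had a log2 fold change of -0.68 ± 0.23 (SE; edgeR, unadjusted p = 0.014), and -0.49 ± 0.20 without SHAM 5 (unadjusted p = 0.034). Ifi35, a leucine zipper protein, had 11.3, 9.77, 13.6, 10.1 and 12.97 FPKM in SG and 11.8, 18.4, 14.1, 12.9 and 16.4 FPKM in SHAM. Its highest library was SHAM 2, and the groups overlapped in SHAM 1 and SHAM 4. Ifi35 differed by a log2 fold change of -0.45 ± 0.14 (edgeR, unadjusted p = 0.011), and -0.39 ± 0.15 without SHAM 5 (unadjusted p = 0.027).

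Cxcl10, a chemokine that draws T cells and NK cells, had 0.58 to 2.61 FPKM in 9 libraries and 7.74 in SHAM 5. Ifi44 had 2.50 to 4.13 FPKM in 9 libraries and 15.9 in SHAM 5. Sp100, a nuclear body protein, had 0.43 to 1.86 FPKM in 9 libraries and 5.86 in SHAM 5. All 3 were at least 2-fold above every other library in SHAM 5. Xaf1, which promotes cell death, had 2.27 to 7.50 FPKM in 9 libraries and 15.6 in SHAM 5. Lgals3bp, a secreted glycoprotein, had 4.70 to 13.5 FPKM in 9 libraries and 28.4 in SHAM 5. Rtp4, a chaperone of membrane receptors, had 3.49 to 14.8 FPKM in 9 libraries and 21.0 in SHAM 5. Xaf1 and Lgals3bp were also 2-fold above, and Rtp4 was 1.42-fold above SG 5. The log2 fold changes of these 6 genes ran from -1.15 in Ifi44 to -0.26 in Xaf1, and without SHAM 5 from -0.17 in Lgals3bp to 0.55 in Sp100.

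How far SHAM 5 stood apart was compared with the same count in every library. Of all tested genes 84 (0.754%) were at least 2-fold above every other library in SHAM 5, and 21 of these 84 (25.0%) were members, or 65.6% of the tested members. The 21 include Rsad2, which reached the level set for testing only through SHAM 5. Another 18 of the 84 came from the lists of other interferon genes described next, and 45 from no list. In each of the other 9 libraries 4 to 66 genes stood so far above, the 66 in SG 2, and 0 of them were members.

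**Figure D4:**
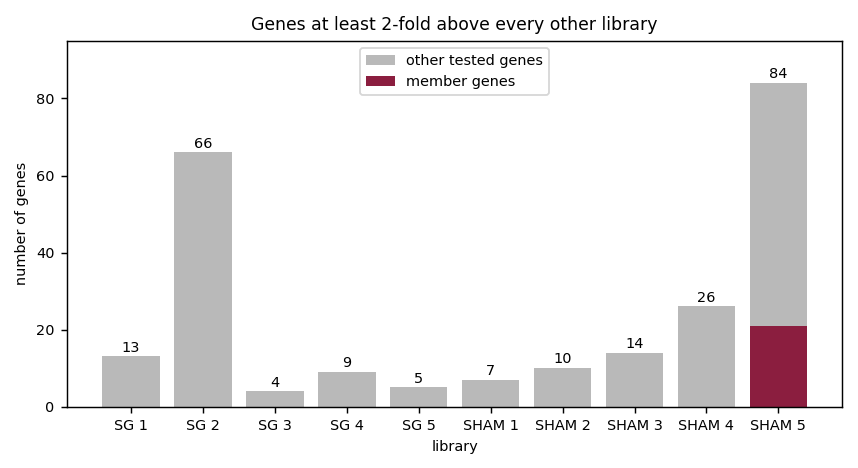
Number of tested genes at least 2-fold above every other library, on the y axis, for each library on the x axis, with members in dark red and other genes in grey. SHAM 5 has 84 such genes, 21 of them members, and SG 2 has 66 with 0 members.

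Among the 9 libraries without SHAM 5 high and low libraries came from both groups. SHAM 1 was the highest of the 9 for 11 of 32 members (9.30% of all genes) and SG 2 for 10 (18.3%). SG 4 was the lowest for 12 (8.21% of all genes, and 6.5% over all 10 libraries) and SHAM 2 for 8 (10.1%). The mean centred level over these 9 was highest in SHAM 1 (0.35), SG 2 and SG 5 (0.22 each) and lowest in SG 4 (-0.37) and SHAM 3 (-0.22). Pairs of members correlated with a median r of 0.74 over 10 libraries (496 pairs; all genes 0.09) and of 0.32 over the 9 (all genes 0.08). Values of different genes come from the same libraries here and share each library's depth, so these correlations are a description. Over the 9 libraries Oasl (r = 0.90), Ifih1 (0.85), Irf7 (0.83), Mx2 (0.82) and Rsad2 (0.82) followed the mean of the other members most closely. Ifi35 (-0.18) and Stat2 (0.04) did not follow it.

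Other genes of the pathway were read as lists, apart from the members. Of 50 other interferon-stimulated genes 44 were in the table and 37 were tested. With all libraries 35 of the 37 were below 0 in log2 fold change (median -0.61), 6 had an unadjusted p under 0.05 and 0 passed in edgeR. Without SHAM 5 the median was -0.04 and 0 had an unadjusted p under 0.05. SHAM 5 was the highest library for 29 of them and at least 2-fold above every other for 17. Oasl2, a synthetase-like gene, had 0.64 to 1.2 FPKM in SG, 0.78 to 1.60 in SHAM 1 to SHAM 4 and 12.3 in SHAM 5. Herc6, a ubiquitin ligase family member, had 1.62 to 2.90, 2.56 to 7.10 and 24.0 FPKM in the same order. Cmpk2, a mitochondrial nucleotide kinase, had 0.47 to 1.10, 0.52 to 1.22 and 8.72 FPKM. These, with Oas1i (0.60 to 1.85, 1.24 to 2.44 and 11.5 FPKM), had the smallest p-values of that list, and their log2 fold changes of -2.08, -1.81, -1.97 and -1.57 became -0.46, -0.52, -0.38 and -0.51 without SHAM 5.

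The other genes of the pathway were read in the same way. The receptors and their kinases (8 tested of 9) had a median ratio of SHAM 5 to the other libraries of 0.958 (range 0.884 to 1.65), against 0.924 for all tested genes, and their log2 fold changes had a median of 0.04 (0.05 without SHAM 5). Ifnar1 had 12.7 FPKM in SHAM 5 against 11.02 to 17 elsewhere, and Jak1 had 27.2 against 25.6 to 35.6. The other interferon transcription factors (6 tested) had a higher median ratio, 1.53 (range 0.758 to 2.45). Nlrc5 was at 2.45, Irf5 at 2.17, Irf8 at 1.99, Stat3 at 1.07, Irf3 at 0.97 and Irf2 at 0.758. Their log2 fold changes had a median of -0.15 (0.04 without SHAM 5). For the brakes on signalling (5 tested) the median ratio was 1.18 (range 0.178 to 1.39) and the median log2 fold change 0.04 (0.16 without SHAM 5). The other sensors and adaptors (8 tested) had a median ratio of 1.13 (range 0.532 to 3.79) with log2 fold changes centred on a median of 0.02 (0.14 without SHAM 5). Among them Eif2ak2, the kinase that stops translation on double-stranded RNA, stood at 14.4 FPKM in SHAM 5 against 2.50 to 5.25 elsewhere. Targets of interferon gamma and antigen presentation (13 tested) had a median ratio of 1.18, with 0 genes 2-fold above every other library, and log2 fold changes with a median of -0.20 (near 0 without SHAM 5). Of 11 interferon genes 3 were in the table. Ifna4 reached 0.07 FPKM and Ifne 0.09 FPKM at most, and Ifnk, the one tested, had 0.56 to 1.64 FPKM with a log2 fold change of 0.44 (0.51 without SHAM 5).

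**Figure D5:**
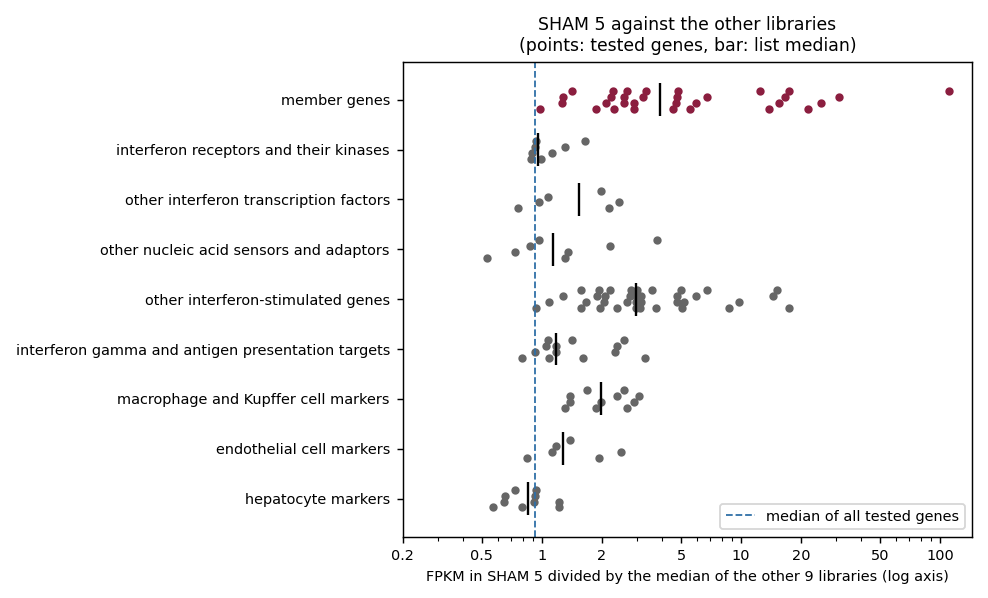
FPKM in SHAM 5 divided by the median of the other 9 libraries (log axis) for the tested genes of each list, with bars at list medians and a dashed line at the median of all tested genes, 0.924. The members (median 3.93) and other interferon-stimulated genes (2.98) lie to the right, macrophage markers (1.99) between, and receptors and their kinases (0.958) on the line.

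Markers of other liver cells were set beside these values. The summed level of the 11 macrophage and Kupffer cell markers in the table was 286 to 620 FPKM in SG, 245 to 374 FPKM in SHAM 1 to SHAM 4 and 628 FPKM in SHAM 5. SHAM 5 was the highest library for 6 of the 11 and at least 2-fold above every other for 0. The macrophage sum of SG 2 was 620 FPKM, made up differently from that of SHAM 5. Clec4f, C1qa, C1qb, C1qc, Cd68 and Vsig4 were higher in SHAM 5 than in SG 2. Lyz2, Adgre1, Csf1r, Marco and Cd163 were higher in SG 2. The summed level of the 33 members was 442 FPKM in SG 2, 1300 FPKM in SHAM 5 and 301 to 597 FPKM in the other 8 libraries. The sums for T and NK cell markers (12 in the table) were 11.1 to 21.1 FPKM in SG, 9.45 to 18.8 in SHAM 1 to SHAM 4 and 25.9 in SHAM 5. Dendritic cell markers (7) summed to 3.16 to 3.98, 2.08 to 3.53 and 4.58 FPKM, and endothelial markers (6) to 54.6 to 75.7, 39.0 to 69.8 and 79.9 FPKM. Neutrophil markers (6) summed to 1.32 to 4.02, 0.551 to 1.62 and 1.9 FPKM, with Mpo at 0 in every library, and B and plasma cell markers (6) to 20.4 to 66.8, 6.07 to 25.4 and 15.1 FPKM. Cd4 alone gave 17.8 of the 25.9 FPKM of T and NK cell markers in SHAM 5, and 16.25 of 21.1 FPKM in SG 2. Cd3d, Cd3e and Cd3g had 0.67 FPKM or less in every library, so this sum is mostly the level of Cd4. It is not read as a level of T or NK cells. Of the T and NK list Cd4, Cd3d, Cd8a, Nkg7, Gzmb and Prf1 were highest in SHAM 5. Cd3e, Cd3g, Cd5, Klrd1 and Ncr1 were highest in another library, and Cd8b had 0.21 FPKM in both SG 2 and SHAM 5. The part of any of these cell types in the level of the members was not tested.

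Outside all lists, the tested genes most like the members over 10 libraries were named by their Pearson correlation with the mean centred member level. Of the 10 highest, 9 are given: AABR07025140 (r = 0.97), Uba7 (0.96), AABR07021804 (0.96), RT1-T24-3 (0.95), Stard3nl (0.95), AABR07025272 (0.95), AABR07059663 (0.94), AABR07018078 (0.94) and Trafd1 (0.93). Without SHAM 5 the r over 9 libraries was lower for each, at 0.78, 0.72, 0.66, 0.75, 0.63, 0.63, 0.72, 0.35 and 0.60 in the same order. Uba7, the enzyme that activates Isg15 for conjugation, had 0.85 to 1.98 FPKM in 9 libraries and 7.45 in SHAM 5. Trafd1, a zinc finger regulator of innate signalling, had 4.86 to 8.4 FPKM in 9 libraries and 16.2 in SHAM 5. Over the 9 libraries without SHAM 5 other genes came first, namely Ccnd3 (0.91), Csgalnact2 (0.90), Cnot3 (0.88), Rps6 (0.87) and Zmiz1 (0.86).

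Other tests placed the members differently. DESeq2 called 18 of all tested genes (0.162%) and 0 members (lowest adjusted p 0.142), with 626 genes (5.62%) and 7 members at an unadjusted p under 0.05. It gave no p-value for 10 members, whose counts it treated as outliers, against 0.467% of all genes: Usp18, Mx2, Mx1, Rsad2, Isg15, Oasl, Ifit3, Ifi44, Ifit1 and Sp100. Limma on log2(FPKM + 0.5) called 0 genes. It gave 28 of 32 members a negative value (30.4% of all genes), with a median of -0.30 against 0.08 over all genes, and 3 members had an unadjusted p under 0.05 (6.28% of all genes). Without SHAM 5, DESeq2 called 39 of all tested genes (0.350%) and 0 members (lowest adjusted p 0.0939), and gave 20 members a negative value (49.8% of all genes). A p-value was missing there for 0 members and 0.314% of all genes. By DESeq2, 5 members had an unadjusted p under 0.05 there (7.10% of all genes): Irf9, Ube2l6, Ifi27 and Ifi35 with negative values, and Ifit1 with a positive one of 2.07. Limma without SHAM 5 called 0 genes, gave 14 members a negative value (34% of all genes) and left Ube2l6 as the 1 member with an unadjusted p under 0.05 (6.74% of all genes).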

How the data were processed

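Ribosomal RNA was depleted from total liver RNA and paired-end libraries were sequenced, per the labels' protocols. Tools named in the submitters' processing notes are StringTie 1.3.4, HISAT2 2.0.4, FastQC 0.10.1 and cutadapt 1.9, with Rnor_6.0 as genome build. Estimated counts and FPKM of 51430 isoforms in each library were deposited in 1 table, per the file headers. These deposited counts are estimates, so isoforms share reads and p-values rest on that split.

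Isoforms of class code =, c, j or o were summed by gene name (84 for the members, 40 annotated and 44 assembled), and 8 member isoforms (7 antisense, 1 intronic) were left out. EdgeR 4.0.16 (R 4.3.3; quasi-likelihood, TMM scaling, no covariate) was fitted to rounded counts of genes with a mean of at least 1 FPKM, two-sided, with Benjamini-Hochberg adjustment over all tested genes and 0.05 as threshold. Limma 3.58.1 on log2(FPKM + 0.5) and DESeq2 1.42.0 were alternatives. The edgeR step was tested on simulated data with the same dispersion for every gene and no library standing apart. How it behaves with a library such as SHAM 5 was not tested. Scaling alters the fold changes, while FPKM levels are sums of the deposited values. Precision depends on the spread among libraries as well as on the depth of 65824088 to 92110190 counts per library. The members and lists were chosen with earlier results of these data known. All members are named, with every library's value for the 12 smallest p-values and the 6 highest ratios of SHAM 5 to the next library. From other lists up to 4 genes with the smallest p are named. Ifnar1, Jak1, Eif2ak2, Ifit1's library values, the interferon genes and the ratios of the other interferon transcription factors were added after values were seen. Gene names of the values are those deposited with the isoforms, and promoters came from RefSeq GRCr8, matched by symbol. The result of 1 gene is not reported here.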

Additional observations from a re-analysis of the deposited data

Results flagged for a closer look

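Within each group of 5 libraries, the highest or lowest value was set against the others by the gap to its nearest neighbour divided by the range of the group, on the log2(FPKM + 0.5) scale, with a limit of 0.71. Of 68 groups examined 18 passed this limit. A group taken alone passes it by chance about 1 in 20 times. The groups share the same libraries and the members vary together, so the 18 are not separate events and cannot be set against that rate. In 16 of them SHAM 5 was far above the other SHAM libraries for a single gene. The sensors were Ddx58 (0.798), Ifih1 (0.771), Dhx58 (0.753) and Zbp1 (0.722). Among the effectors Rsad2 had the widest gap (0.839), before Ifit1 (0.808), Ifit3 (0.758), Mx1 (0.716) and Oasl (0.715). Isg15 (0.828) and Ube2l6 (0.72) stood apart in the Isg15 system, as did Dtx3l (0.799), Parp14 (0.729) and Parp9 (0.722). Ifi44 (0.803) and Sp100 (0.726) completed these. The mean centred level of all tested members also stood apart in SHAM 5 (0.758). The remaining case was a low value in SG: Rsad2 in SG 4, where it was 0.44 FPKM and the rest of the SG libraries had 0.77 to 0.94 FPKM (0.715).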

How the results depend on the processing

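Wide intervals, estimated counts and 1 library that carries most of the signal limit these results. Levels under 1 FPKM limit Rsad2 and Zbp1 as well. They also limit Ifit1 and Sp100, whose medians over the libraries other than SHAM 5 were 0.505 and 0.986 FPKM. Among the 33 genes no adjusted call was made under any setting run. Neither DESeq2's size factors nor leaving out the low-value filter turned a sign. The number of all genes passing was 0 in edgeR, 18 in DESeq2 (39 without SHAM 5, added after seeing the data), 1 without both SG 2 and SHAM 5, and 0 to 1 with 1 library left out (1 without SG 5 and without SHAM 1).

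Members with an unadjusted p under 0.05 numbered 12 (4.53% of all genes). There were 7 in DESeq2 (5.62% of all genes) and 3 in limma on log2(FPKM + 0.5) (6.28%). Limma gave 3 on log2(FPKM + 0.1) and 4 on log2(TPM + 0.5). There were 7 with annotated isoforms alone (25 members fitted), and 3 without both SG 2 and SHAM 5. With 1 library left out there were 4 (SHAM 5, 5.76% of all genes) to 15 (SHAM 2), and 6 without SG 4. Where no share of all genes stands beside a count here, it is not read as a result about the members. Without SHAM 5, settings added after seeing the data gave 4 with the low-value filter on the remaining 9 libraries, 1 in limma (6.74% of all genes) and 5 in DESeq2 (7.10%). There the negative members were 20, 14 and 20, and the median of the members was -0.08, 0.03 and -0.07. That of the other interferon-stimulated genes was -0.02, 0.04 and -0.04. Leaving out 1 library gave 20 to 32 negative members, with 20 without SHAM 5, and medians of -0.95 to -0.07 for members and -0.72 to -0.04 for the other interferon-stimulated genes.

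The signs of single members turned in these settings, as log2 fold changes; the cause was not tested. Leaving out SHAM 5 turned 12: over the libraries left out, Ifih1 ran from -0.42 to 0.12, Ddx58 from -0.65 to 0.07, Irf1 from -0.53 to 0.13, Ifit1 from -3.36 to 2.06, Ifit2 from -0.97 to 0.16 and Rsad2 from -3.03 to 0.09. Likewise Trim25 ran from -0.17 to 0.11, Parp9 from -0.65 to 0.01, Parp14 from -0.50 to 0.15, Cxcl10 from -1.0 to 0.35, Xaf1 from -0.46 to 0.54 and Sp100 from -0.94 to 0.55. With the filter on the remaining 9 libraries the values were Ifih1 0.12, Ddx58 0.07, Irf1 0.13, Ifit1 2.05, Ifit2 0.16, Trim25 0.11, Parp9 0.01, Parp14 0.15, Cxcl10 0.35, Xaf1 0.54 and Sp100 0.55. DESeq2 without SHAM 5 gave Ifih1 0.12, Ddx58 0.08, Irf1 0.13, Ifit1 2.07, Ifit2 0.16, Rsad2 0.10, Trim25 0.12, Parp9 0.01, Parp14 0.15, Cxcl10 0.36, Xaf1 0.55 and Sp100 0.55. Limma without SHAM 5 gave Ifih1 0.17, Ddx58 0.14, Dhx58 0.01, Irf1 0.31, Ifit1 1.09, Ifit2 0.30, Ifit3 0.02, Rsad2 0.12, Isg15 0.06, Trim25 0.21, Parp9 0.05, Parp14 0.29, Dtx3l 0.03, Cxcl10 0.35, Ifi44 0.05, Xaf1 0.52, Rtp4 0.07 and Sp100 0.43. Without both SG 2 and SHAM 5 they were Ifih1 0.07, Ifit1 2.31, Ifit2 0.04, Trim25 0.10, Parp14 0.0, Cxcl10 0.11, Xaf1 0.38 and Sp100 0.34. Limma with all libraries gave Irf1 0.01, Trim25 0.09, Parp14 0.0 and Xaf1 0.11, with a pseudocount of 0.1 Irf1 0.02, Ifit1 0.10, Trim25 0.09, Parp14 0.0, Xaf1 0.13 and Sp100 0.04, and on TPM Trim25 0.01 and Xaf1 0.04. Annotated isoforms alone gave Trim25 0.22 and Parp14 0.33.

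SG and SHAM libraries share replicate numbers, but same-numbered libraries did not deviate together (correlations of -0.219 to 0.141, and only number 5 matched itself best). With the replicate block 5 members had an unadjusted p under 0.05 (share of all genes not given). The median was -0.45, 29 members were negative, and Ifit1 0.16, Xaf1 0.06 and Sp100 0.03 turned positive.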

Other observations

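In SHAM 5, 45 genes of no list stood at least 2-fold above every other library, and the 6 named here were picked after their values were seen. Of the macrophage and Kupffer cell markers 0 of 11 tested stood so, and of the T and NK cell markers 0 of 1 tested, which was Cd4. Cd4 alone is not read as a level of T or NK cells. Among the untested markers of the T and NK list, Klrd1 had 0.36 FPKM in SHAM 5 and 0.42 in SG 5. Ncr1 had 0.21 FPKM in SHAM 5 and 0.23 in SG 3. Others were highest in SHAM 5: Nkg7 at 1.79 FPKM (1.64 in SHAM 4), Prf1 at 1.78 (1.34 in SHAM 4) and Gzmb at 0.78 (0.22 in SG 1). Siglec1, a sialic acid-binding receptor of macrophages, had 15.5 FPKM in SHAM 5 against 5.89 in the next library. Klrk1, the activating receptor NKG2D of NK and T cells, had 5.01 against 1.35 FPKM, and Slfn4, a Schlafen family gene of myeloid cells, 42.5 against 14.8 FPKM. Ms4a6a, a membrane protein of myeloid cells, had 14.8 against 5.28 FPKM, the secreted protease inhibitor gene Slpi 4.45 against 1.70 FPKM, and the membrane protease gene Tmprss2 7.59 against 2.04 FPKM. These values describe 1 library and carry no test.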
